A study of Mus musculus with 24 samples.

Results

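The Wnt ligand promoters are the bait fragments of 10 mouse genes, Wnt1, Wnt3, Wnt3a, Wnt5a, Wnt6, Wnt7b, Wnt9b, Wnt10a, Wnt10b and Wnt11. A bait is a HindIII restriction fragment whose ligations were enriched by promoter capture Hi-C, an assay that lists the genomic fragments found in contact with promoters. Every bait that held an annotated end of a listed gene, or lay within 1000 bp of one, was taken as a member. The rule found 10 of the 22203 baits in the series, and it used no measured value. The genes were, however, chosen with earlier results of these data known. The 24 libraries came from mouse embryos, with cranial neural crest as the labelled cell type, and fell into 12 groups of 2. The groups were PA2 with the Hoxa2PTE-42kb-del allele, Md and PA2 with the Hoxa2PTE-36kb-del allele, Ezh2cKO FNP, Mx, Md and PA2, and WT FNP, Mx, Md and PA2, all at E11.5, and WT progenitors at E8.5. FNP, Mx, Md and PA2 are the usual names of the frontonasal, maxillary, mandibular and second pharyngeal arch tissues. Ezh2 encodes the catalytic subunit of Polycomb repressive complex PRC2.

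The labels' protocols name sorting of crest cells for Wnt1::Cre;ROSARFP and Ezh2cKO embryos. In Wnt1::Cre mice, sequence of the Wnt1 gene drives Cre recombinase in the neural crest, so reads of the transgene and of the Wnt1 gene on chromosome 15 cannot be told apart. For the deletion embryos, no source used here says whether crest cells were sorted or whether the transgene was present. No expression values were used here, so the labelled cell type could not be checked against marker genes. The titles number biological replicates in all groups except the 42kb deletion, whose 2 libraries may therefore be technical replicates. Its p-values draw on a spread estimated over all 12 groups, so they may not measure the spread between 42kb embryos. In PA2, 1 library of the 36kb deletion carries another sample's title in its genotype field, and its own title was used.

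Wnt proteins are secreted, lipid-modified ligands that bind Frizzled receptors and their co-receptors. Some members, such as Wnt1 and Wnt3a, are known mainly for stabilising beta-catenin, and others, such as Wnt5a and Wnt11, mainly for signalling to the cytoskeleton. In the embryonic head, Wnt signals act in the formation and expansion of the neural crest and later in the outgrowth and fusion of the facial processes. Promoters of developmental signalling genes are often rich in CpG dinucleotides and are frequent targets of Polycomb complexes.

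The start sites of 4 members whose contacts are described in detail lay on their own baits, and their promoter windows show how CpG-rich these baited starts are. Each window holds 250 bases before the start and 50 after it, from RefSeq on GRCm38.p6, printed 5′ to 3′ on the gene's strand with every CpG in capitals.
Wnt11, first start, chr7:98834862-98835161, plus strand: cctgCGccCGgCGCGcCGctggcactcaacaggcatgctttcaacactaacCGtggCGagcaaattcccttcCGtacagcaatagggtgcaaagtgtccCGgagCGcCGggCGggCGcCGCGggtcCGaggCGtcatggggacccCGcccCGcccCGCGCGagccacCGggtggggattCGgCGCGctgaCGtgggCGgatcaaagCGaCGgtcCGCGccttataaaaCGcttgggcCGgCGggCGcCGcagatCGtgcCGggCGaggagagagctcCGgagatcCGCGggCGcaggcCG
Wnt11, second start, chr7:98838595-98838894, plus strand: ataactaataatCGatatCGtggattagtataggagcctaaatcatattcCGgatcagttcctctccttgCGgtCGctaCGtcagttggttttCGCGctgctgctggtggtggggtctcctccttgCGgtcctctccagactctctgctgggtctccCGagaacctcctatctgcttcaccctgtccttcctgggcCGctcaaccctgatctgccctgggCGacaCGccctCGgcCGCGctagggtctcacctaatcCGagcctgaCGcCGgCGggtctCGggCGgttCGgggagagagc
Wnt3a, chr11:59290702-59291001, minus strand: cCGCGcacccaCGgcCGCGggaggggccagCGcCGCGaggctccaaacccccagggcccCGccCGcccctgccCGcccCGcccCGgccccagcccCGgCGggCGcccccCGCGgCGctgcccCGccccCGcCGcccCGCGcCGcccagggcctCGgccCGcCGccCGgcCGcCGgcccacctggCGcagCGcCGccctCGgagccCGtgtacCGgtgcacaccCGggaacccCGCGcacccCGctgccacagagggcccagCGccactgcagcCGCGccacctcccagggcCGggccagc
Wnt1, chr15:98789607-98789906, plus strand: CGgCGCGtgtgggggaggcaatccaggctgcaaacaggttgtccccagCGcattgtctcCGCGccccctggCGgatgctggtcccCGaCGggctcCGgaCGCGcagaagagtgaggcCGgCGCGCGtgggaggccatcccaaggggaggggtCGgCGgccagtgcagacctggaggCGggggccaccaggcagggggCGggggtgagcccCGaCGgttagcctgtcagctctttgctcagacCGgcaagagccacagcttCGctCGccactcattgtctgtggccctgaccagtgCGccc
Wnt10b, chr15:98778101-98778400, minus strand: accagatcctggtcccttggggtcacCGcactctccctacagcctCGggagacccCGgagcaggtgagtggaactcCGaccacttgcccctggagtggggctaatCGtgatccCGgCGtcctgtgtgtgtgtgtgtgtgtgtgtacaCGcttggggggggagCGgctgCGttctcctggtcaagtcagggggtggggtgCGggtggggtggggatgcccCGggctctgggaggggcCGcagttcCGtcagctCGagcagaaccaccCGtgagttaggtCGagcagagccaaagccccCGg

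The first Wnt11 window and the Wnt3a window each held 45 CpG dinucleotides. Of the 32851 windows of the table, whose median was 7, 1.9% held as many or more. The Wnt1 window held 26 (16.9% of windows had as many or more), the second Wnt11 window 23 (21.5%) and the Wnt10b window 18 (29.7%). CpG was searched on the printed strand, and because CG reads the same on both strands the count holds for both. Windows of Wnt3, Wnt6 and Wnt9b were also matched. Those of Wnt6 and Wnt9b lay on baits outside the rule, at chr1:74766819-74773045 and chr11:103747051-103752296, because the gene records used by the rule end elsewhere. No window was matched for Wnt5a, Wnt7b and Wnt10a.

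Each deposited list gives the interactions of 1 library that scored 5 or more in CHiCAGO, a caller that compares each fragment pair with its own library's background. The 42kb deletion libraries held 154206 to 158363 calls, the 36kb deletion libraries 142284 to 154232, the Ezh2cKO libraries 164248 to 190343, the E11.5 WT libraries 168670 to 176164 and the E8.5 libraries 154922 to 163148. Read depth was unknown, so the values below are numbers of called interactions, and calls just below the score limit are unseen. For the tests, a bait's cis calls (those on its own chromosome) plus 0.5 were divided by the library's cis calls and taken to log2. A single limma model was fitted over all 24 libraries and the 10344 baits that averaged 5 or more cis calls, with Benjamini-Hochberg adjustment over all of them. A log2 change below is on that scale, with its standard error (SE), and a change is called at an adjusted p under 0.05.

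Of the 10 member baits, 9 passed the minimum and were tested; the bait shared by Wnt10a and Wnt6 averaged 4.08 cis calls and was not. Wnt11 averaged 46.4 cis calls per library, more than 98.5% of all baits, Wnt7b averaged 35.4 and Wnt5a 28.6. Wnt1 averaged 12.8, Wnt3a 12.5, the bait in the Wnt1 3′ flank 11.6, the bait shared by Wnt3 and Wnt9b 8.71, and the bait at the upstream end of Wnt6 6.25. The mean of Wnt10b lay close to that of the 3′ flank bait. The 3′ flank bait (chr15:98794666-98808156) lies 836 bp from the end of Wnt1 and holds no end of it. The gene on this fragment is Ddn, so its calls may belong to Ddn. The median of all baits was 4.5. These counts also depend on fragment length and mappability, so they are not levels to be compared between genes.

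**Figure D1:**
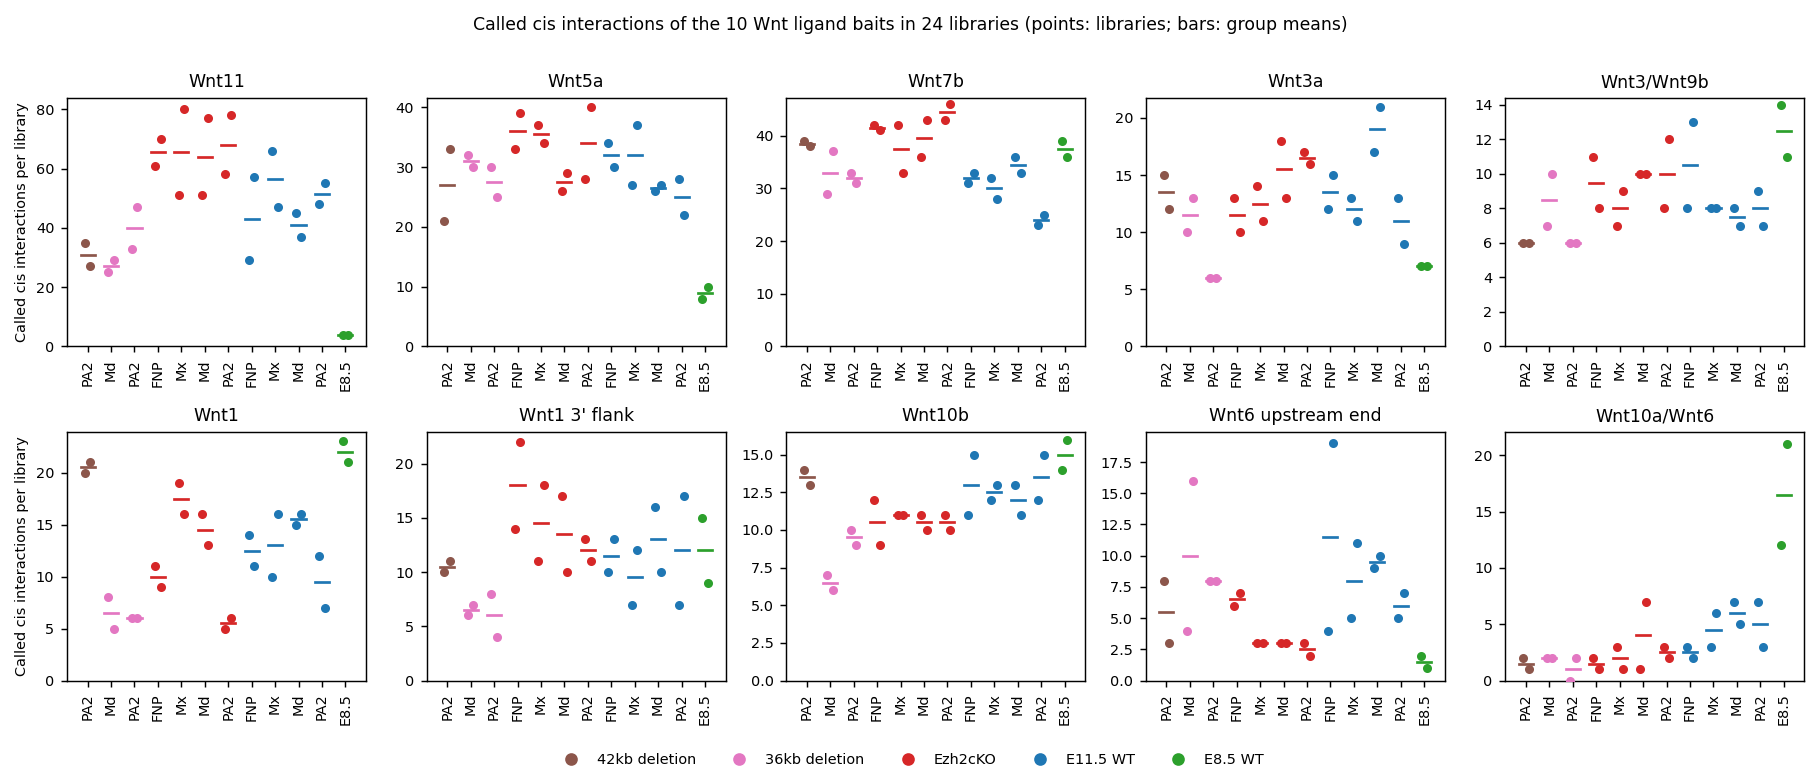
Called cis interactions (y axis, per library) of each Wnt ligand bait in the 12 groups, with 1 point per library and a bar at the mean of each group's 2 libraries. Wnt11 and Wnt5a lie far lower at E8.5 (4 calls in both libraries for Wnt11) than in any E11.5 library, and the shared Wnt10a/Wnt6 bait lies higher at E8.5 (12 and 21 calls).

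The comparison of E11.5 WT crest with E8.5 WT progenitors asked how these promoters' contacts differ between the tissues of the face and the early crest. Wnt11, Wnt5a, Wnt3a and the upstream Wnt6 bait had more cis calls at E11.5, and Wnt1 and Wnt7b had fewer. In limma, 6 of the 9 tested baits passed the threshold (4 higher, 2 lower), against 28.9% of all 10344 baits tested (18.6% higher and 10.3% lower). The median log2 change was -0.19 over the 9 baits and 0.03 over all baits. Only 2 libraries stand for E8.5, so each call was also examined without either of them.

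Wnt11, a ligand that guides cell movements in the early embryo, showed the largest difference between stages among the 9 baits. It had 29, 57, 66, 47, 45, 37, 48 and 55 cis calls in the WT libraries at E11.5 (2 each of FNP, Mx, Md and PA2), against 4 and 4 at E8.5. The stages did not overlap, and the lowest E11.5 library was FNP replicate 1. In limma the log2 change came to 3.28 (SE 0.23; limma adjusted p = 1.28e-09), and the call held without any 1 of the 24 libraries. The contacts of Wnt11 (bait at chr7:98834699-98840472) lay in blocks on both sides of the bait. Of them, 21 fragments were called in at least 7 of the 8 E11.5 WT libraries and in neither E8.5 library. The block of 16 on the side of higher coordinates, 117.8 to 256.8 kb away, lay within the body of Uvrag, a gene of autophagy and endosome traffic. The other 5 lay 80.1 to 139.5 kb away on the opposite side. Those at 118.6 and 122.8 kb held an end of Thap12 or lay within 1000 bp of it, and the remainder held no named gene. At E8.5, both libraries listed 2 fragments in Uvrag, 233.7 and 240.6 kb away, and these were called in all 24 libraries.

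Wnt5a, needed in mice for the outgrowth of the limbs and the face, had 34, 30, 27, 37, 26, 27, 28 and 22 cis calls at E11.5, against 8 and 10 at E8.5. The stages did not overlap. Its log2 change was 1.51 (SE 0.18; limma adjusted p = 2.59e-06), and this call too held without any 1 library. None of the Wnt5a calls (bait at chr14:28498679-28508261) had another bait at its far end. At E11.5 the contacts lay in a few compact clusters far from the bait, and 11 fragments were called in at least 7 of 8 E11.5 WT libraries and in neither E8.5 library. Of these, 7 lay 497.6 to 696.9 kb away in the body of Erc2, which encodes a protein of the presynaptic active zone. The other 4 lay 581.4 to 942.5 kb away on the far side, in Cacna2d3, a calcium channel subunit gene. A fragment in Erc2 at 410.1 kb was called in both E8.5 libraries and in at most 1 E11.5 WT library.

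Wnt3a, needed for the formation of posterior somites and, with Wnt1, for the expansion of dorsal neural and crest cells, had 12, 15, 13, 11, 17, 21, 13 and 9 cis calls at E11.5, against 7 and 7 at E8.5. The ranges did not overlap, by 2 calls. Its log2 change was 0.78 (SE 0.23; limma adjusted p = 0.0137). Without E8.5 replicate 1 the adjusted p was 0.0822 and without E8.5 replicate 2 it was 0.113, so that this call rests on both. The contacts of Wnt3a (bait at chr11:59283348-59299191) gathered at the zinc finger genes Zkscan17 and Zfp867. The Zfp867 promoter, 181.9 kb away, was called in 2 of 2 42kb, 3 of 4 36kb, 8 of 8 Ezh2cKO, 8 of 8 E11.5 WT and 2 of 2 E8.5 libraries. In Zkscan17, 2 fragments, 195.1 and 201.3 kb away, were called in 8 of 8 E11.5 WT libraries and in neither E8.5 library.

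Wnt1, which in mice is required for the midbrain and hindbrain boundary, had 14, 11, 10, 16, 15, 16, 12 and 7 cis calls at E11.5, against 23 and 21 at E8.5. Both E8.5 libraries lay above every E11.5 WT library. Between stages the log2 change was -0.93 (SE 0.25; limma adjusted p = 0.00709), and without E8.5 replicate 1 the adjusted p was 0.106. The E8.5 and E11.5 libraries also differed in the chromosome 11 calls of this bait described below, and their part in the result was not tested. Of the cis contacts of Wnt1 (bait at chr15:98784886-98791552), 8 fragments were called in both E8.5 libraries and in at most 1 of 8 E11.5 WT libraries. They included the Ccdc65 promoter 79.6 kb away and 3 fragments 3900.2 to 4257.6 kb away, 1 of which, at 4220.5 kb, held an end of the homeobox gene Hoxc6.

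Wnt7b, a ligand best known from lung and kidney development, had 31, 33, 32, 28, 36, 33, 23 and 25 cis calls at E11.5, against 39 and 36 at E8.5. The ranges met at 36 calls, in Md replicate 1 and E8.5 replicate 2. Here the log2 change was -0.44 (SE 0.14; limma adjusted p = 0.0226), with adjusted p-values of 0.241 and 0.0602 without E8.5 replicate 1 and replicate 2. All contacts of Wnt7b (bait at chr15:85579596-85583817) that were called in at least 7 libraries lay towards lower coordinates. Of these, 14 fragments, 193.0 to 329.0 kb away, were called in all 24 libraries. They lay in and around Atxn10 and the extracellular matrix gene Fbln1, and included the Atxn10 promoter at 246.0 kb. A further 7 fragments, 97.2 to 203.7 kb away, were called in both E8.5 libraries and in at most 1 of 8 E11.5 WT libraries.

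The upstream Wnt6 bait (chr1:74748108-74754476), which also holds an end of the kinase subunit gene Prkag3, had 4, 19, 5, 11, 9, 10, 5 and 7 cis calls at E11.5, against 2 and 1 at E8.5. The stages did not overlap, but FNP replicate 2 alone reached 19. This bait changed by 1.99 on the log2 scale (SE 0.51; limma adjusted p = 0.00551), and without E8.5 replicate 2 the adjusted p was 0.12. The upstream bait holds no RefSeq start of Wnt6, which lies on another bait given under other observations, so its calls may belong to Prkag3. At that start bait the E11.5 WT median lay below both E8.5 values. The bait shared by Wnt10a and Wnt6 (chr1:74785192-74796557) was not tested. Wnt10a is known for its role in teeth and Wnt6 for expression in surface ectoderm. This bait had 2 to 7 cis calls in the E11.5 WT libraries, against 12 and 21 at E8.5, so the stages did not overlap. Of its contacts, 7 fragments were called in both E8.5 libraries and in at most 1 of 8 E11.5 WT libraries. Among them, 4 at 85.5 to 99.7 kb lay on the transcription factor gene Fev and the lens crystallin gene Cryba2, and none of these 4 was called in any other library.

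The remaining baits passed no threshold between stages. Wnt3 and Wnt9b, needed for the body axis and for kidney and lip formation, share 1 bait (chr11:103767171-103778227), which had 7 to 13 cis calls at E11.5 against 14 and 11 at E8.5. Its log2 change was -0.66 (SE 0.27; limma adjusted p = 0.0688). Without WT FNP replicate 2, which had 13 calls, the adjusted p was 0.0424. Its steadiest contacts were 4 fragments in Nsf, the gene of an ATPase of vesicle fusion, 124.3 to 141.3 kb away and called in all 24 libraries. Wnt10b, a ligand of bone and fat cell formation, had 11 to 15 cis calls at E11.5, against 14 and 16 at E8.5, with a log2 change of -0.34 (SE 0.21; limma adjusted p = 0.247). The bait in the Wnt1 3′ flank had 7 to 17 at E11.5, against 15 and 9 at E8.5, with a log2 change of -0.19 (SE 0.35; limma adjusted p = 0.723).

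**Figure D2:**
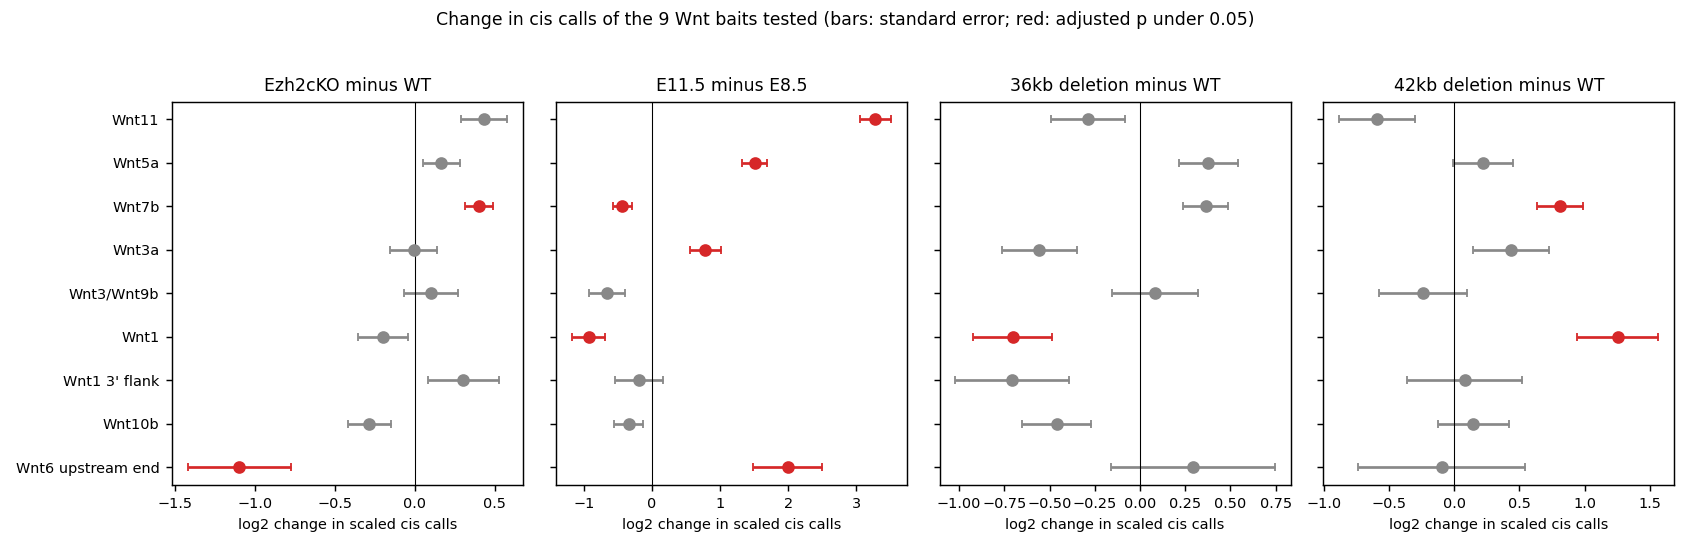
Log2 change in scaled cis calls (x axis) with its standard error for the 9 Wnt baits tested, in the 4 comparisons; each panel has its own x scale, and red marks an adjusted p under 0.05. In the comparison of E11.5 with E8.5, Wnt11 lies at 3.28 and Wnt5a at 1.51, while the changes in Ezh2cKO lie between -1.10 and 0.43.

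Among the 4 WT tissues at E11.5, none of the 9 baits differed in an F test in limma, in which 0.271% of all baits were called. The lowest unadjusted p among them was 0.0522, for Wnt7b (adjusted p = 0.518), so at an unadjusted p of 0.05 the count was also 0. For Wnt7b the tissues were ordered Md (36 and 33 calls), FNP (31 and 33), Mx (32 and 28) and PA2 (23 and 25), and neighbouring tissues other than PA2 overlapped. Wnt11 had 66 and 47 calls in Mx, 48 and 55 in PA2, 29 and 57 in FNP and 45 and 37 in Md, and FNP overlapped every other tissue. With 2 libraries a tissue, only large differences could be seen.

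The comparison of Ezh2cKO with WT at E11.5 asked what loss of Ezh2 does to these contacts, over the means of FNP, Mx, Md and PA2 with 8 libraries against 8. Wnt7b gained cis calls, and the upstream Wnt6 bait, whose calls may belong to Prkag3, lost them. The other 7 tested baits did not pass. The 2 calls (1 higher, 1 lower) among 9 baits compare with 10.8% of all baits called in limma (5.38% higher and 5.39% lower). The median log2 change was 0.10 over the 9 baits and 0.01 over all baits. No member bait had a cis contact that was called in at least 7 of 8 WT libraries and at most 1 of 8 Ezh2cKO libraries.

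Wnt7b had 33 to 46 cis calls in Ezh2cKO libraries (median 42), against 23 to 36 in WT libraries (median 31.5). By tissue the Ezh2cKO libraries had 42 and 41 in FNP, 42 and 33 in Mx, 36 and 43 in Md and 43 and 46 in PA2. The WT libraries had 31 and 33 in FNP, 32 and 28 in Mx, 36 and 33 in Md and 23 and 25 in PA2. Those of WT PA2 were the 2 lowest of all 24 libraries and are also the reference of the 42kb comparison below. The genotypes overlapped in Md, where both held a library with 36 calls, and did not overlap in FNP, Mx and PA2. Over the 4 tissues the log2 change was 0.40 (SE 0.088; limma adjusted p = 0.00539), and the call held without any 1 library. Counting only calls with a score of at least 7 gave an adjusted p of 0.0645. In single tissues the call was made in PA2 only (log2 change 0.81, SE 0.18; limma adjusted p = 0.0169; 1.63% of all baits called). That call was lost without any 1 of its 4 libraries (adjusted p 0.0802 to 0.159, the highest without WT PA2 replicate 1), with scores of at least 7 (0.237), without trend (0.0695) and in the PA2 groups alone (0.135). Of all baits, 0.831% were called in FNP, 1.26% in Mx and 1.84% in Md. The limma test of a difference in the Wnt7b change between tissues gave an adjusted p of 0.875.

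For Wnt7b, 2 contacts were called in at least 7 of 8 Ezh2cKO and in 0 of 8 E11.5 WT libraries. They lay in the body of Atxn10, 203.7 kb and 178.1 kb from the bait. The first was called in 1 of 2 42kb, 4 of 4 36kb, 7 of 8 Ezh2cKO and 2 of 2 E8.5 libraries. The second was called in 1 of 2 42kb, 2 of 4 36kb, 8 of 8 Ezh2cKO and 2 of 2 E8.5 libraries. Both were thus listed in every E8.5 library and in no E11.5 WT library. The Ezh2cKO and E8.5 comparisons share the WT libraries.

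The upstream Wnt6 bait had 2 to 7 cis calls in Ezh2cKO libraries (median 3), against 4 to 19 in WT libraries (median 8). The Mx, Md and PA2 libraries of Ezh2cKO had 2 or 3 calls each, below all WT libraries, while its FNP libraries had 6 and 7, within the WT range. The log2 change was -1.10 (SE 0.32; limma adjusted p = 0.0312). This call was lost without any 1 of 11 libraries, with adjusted p-values of 0.0523 to 0.0925, the highest without WT FNP replicate 2. The other 10 were Ezh2cKO FNP replicate 1, Mx replicates 1 and 2, Md replicates 1 and 2 and PA2 replicate 2, and WT Mx replicate 2, Md replicates 1 and 2 and PA2 replicate 2. Its steadiest contact, with a fragment 17.8 kb away that holds ends of Prkag3 and Cyp27a1, a bile acid enzyme gene, was called in 7 of 8 Ezh2cKO and 7 of 8 WT libraries, in no deletion library and in neither E8.5 library. The Wnt6 bait shared with Wnt10a had 1 to 7 cis calls in Ezh2cKO libraries (median 2), against 2 to 7 in WT libraries (median 4).

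Wnt11 had 61, 70, 51, 80, 51, 77, 58 and 78 cis calls in Ezh2cKO libraries, against 29, 57, 66, 47, 45, 37, 48 and 55 in WT libraries. The ranges overlapped between 51 and 66 calls. The log2 change was 0.43 (SE 0.15; limma adjusted p = 0.0601) and did not pass. Leaving out WT FNP replicate 2, WT Mx replicate 1 or Ezh2cKO Mx replicate 1 gave adjusted p-values of 0.0124, 0.0454 and 0.0281. Of its contacts, 3 were called in at least 7 of 8 Ezh2cKO and 1 of 8 WT libraries, at 189.0, 147.3 and 113.3 kb on the side of lower coordinates, the first in the body of Emsy, which encodes a protein that binds BRCA2. The Emsy promoter, 181.8 kb away, was called in 8 of 8 Ezh2cKO libraries, against 4 of 8 WT libraries, and in no deletion or E8.5 library.

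**Figure D3:**
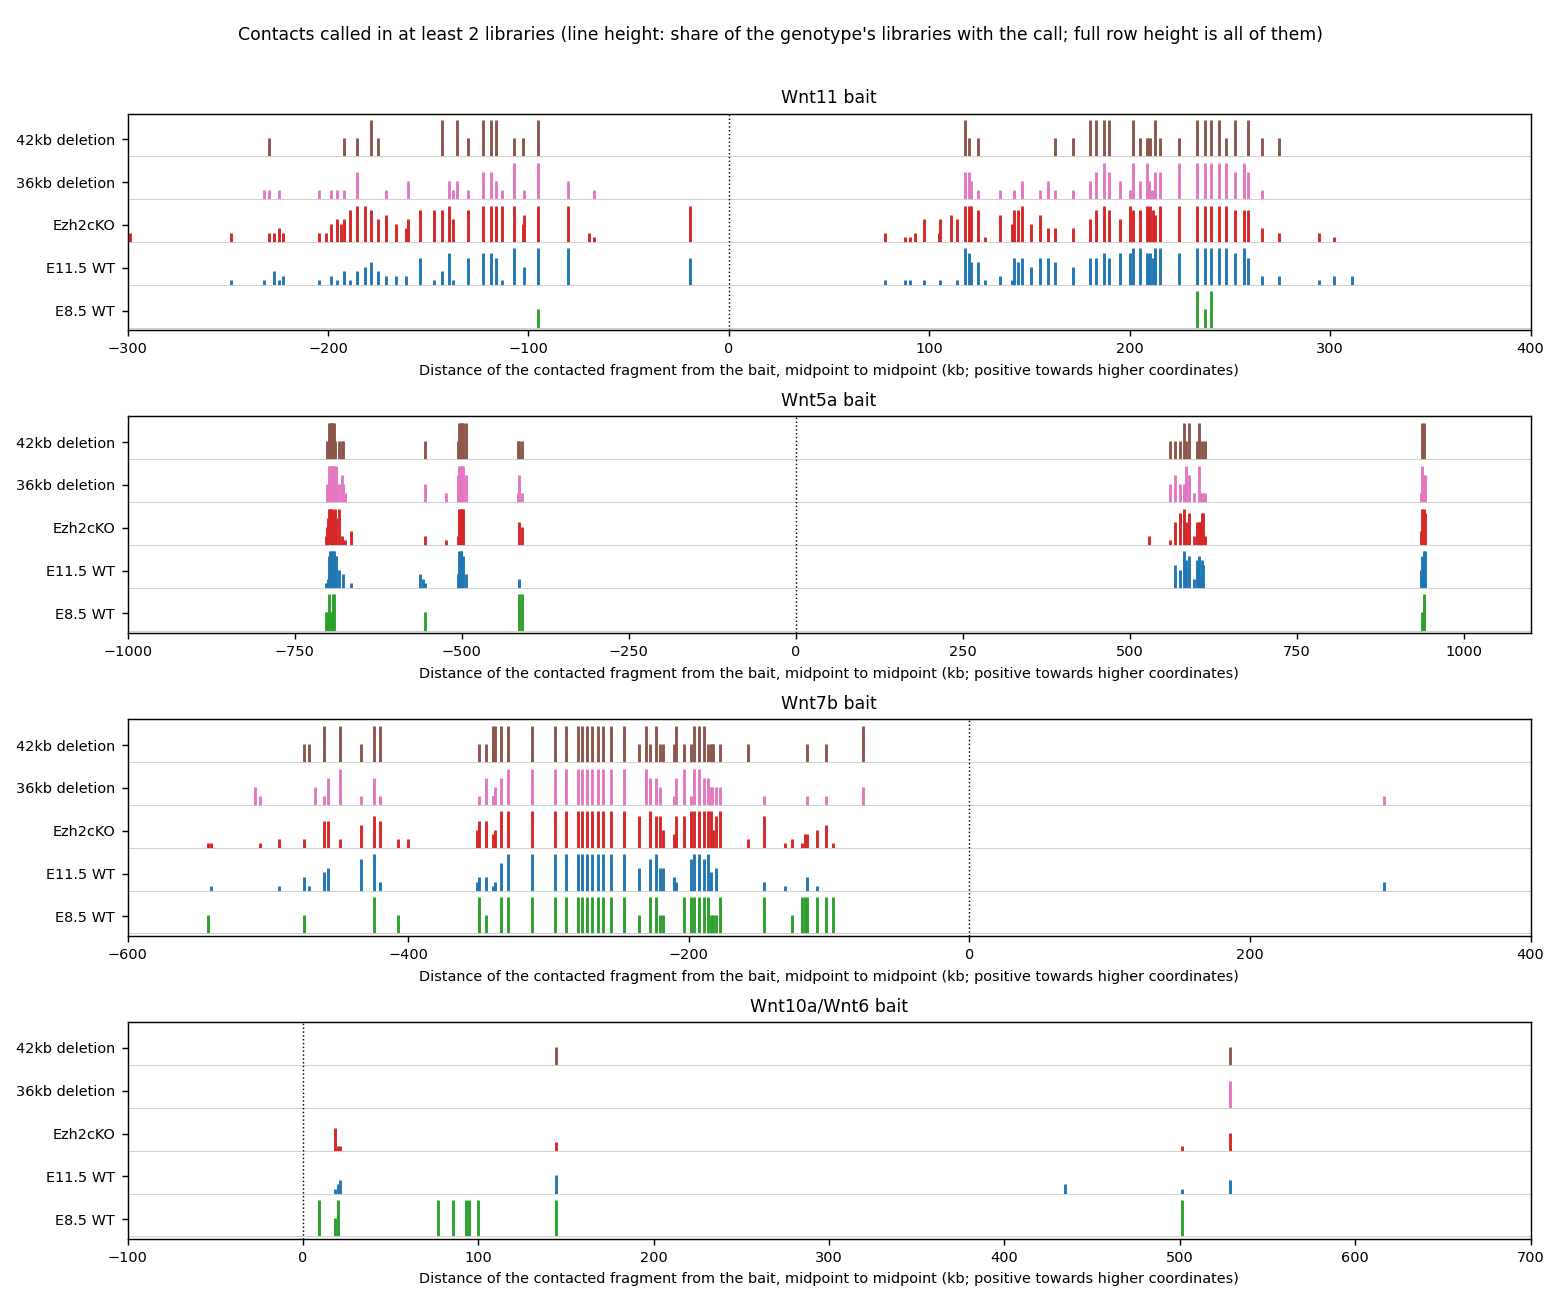
Cis contacts of the Wnt11, Wnt5a, Wnt7b and shared Wnt10a/Wnt6 baits by distance from the bait (x axis, kb, one scale per panel), for fragments called in at least 2 libraries within the range shown. Each row is a genotype, and the height of a line is the share of its libraries with the call (2 42kb, 4 36kb, 8 Ezh2cKO, 8 E11.5 WT and 2 E8.5 libraries). The Wnt11 row at E8.5 is nearly empty, and the Wnt10a/Wnt6 bait has a cluster at 85.5 to 99.7 kb in the E8.5 row alone.

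The other baits gave values that overlapped between genotypes. Wnt5a had 26 to 40 cis calls (median 33.5) in Ezh2cKO libraries, against 22 to 37 (median 27.5) in WT libraries (log2 change 0.16, SE 0.12; limma adjusted p = 0.395). Wnt3a had 10 to 18 (median 13.5), against 9 to 21 (median 13), with a log2 change of -0.01 (SE 0.15; limma adjusted p = 0.982). Wnt3/Wnt9b had 7 to 12 (median 9.5), against 7 to 13 (median 8), with a log2 change of 0.10 (SE 0.17; limma adjusted p = 0.755). None of the 3 stands apart by genotype. Wnt1 had 5 to 19 (median 12) in Ezh2cKO libraries, against 7 to 16 (median 13) in WT libraries (log2 change -0.20, SE 0.16; limma adjusted p = 0.453). Its lowest Ezh2cKO libraries were those of PA2, with 5 and 6 calls, against 12 and 7 in WT PA2. Wnt10b had 9 to 12 (median 11) in Ezh2cKO libraries, against 11 to 15 (median 12.5) in WT libraries, with a log2 change of -0.28 (SE 0.14; unadjusted p = 0.0486, limma adjusted p = 0.193). The 3′ flank bait had 10 to 22 (median 13.5), against 7 to 17 (median 11), with a log2 change of 0.30 (SE 0.22; limma adjusted p = 0.421). The Ezh2cKO change differed between tissues for none of the 9 baits by the F test in limma, in which 0.00967% of all baits were called; the lowest unadjusted p was 0.0771, for Wnt7b.

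Contacts with other promoters, counted as promoter partners, made up very different shares of the members' cis calls. Of the cis calls of Wnt10b, 96.0% had another bait at the far end. For the bait in the Wnt1 3′ flank the share was 47.8%, for the bait shared by Wnt10a and Wnt6 29.6%, for Wnt1 17.0% and for Wnt3a 14.0%. It was 6.24% for Wnt7b, 5.33% for the upstream Wnt6 bait, 2.15% for Wnt11 and 0.478% for Wnt3/Wnt9b. Of all calls of a library, 12.5% to 16.3% joined 2 baits. Such a call counted for both baits, whichever of them was captured, and what part this has in the high share of Wnt10b was not tested. The Wnt10b promoter (bait at chr15:98776211-98781119) was called with the promoters of Ddx23/Rnd1 (111.9 kb), Rnd1 (102.3 kb) and Ccdc65 (70.0 kb) in all 24 libraries. Ddx23 encodes a helicase of the spliceosome. The second Ccdc65 bait, shared with Fkbp11 (52.1 kb), and Adcy6 (170.0 kb), an adenylyl cyclase gene, were called in all 16 Ezh2cKO and E11.5 WT libraries. The Adcy6 contact was called in 2 of 2 42kb and 1 of 4 36kb libraries. The 3′ flank bait was called with Rnd1 (125.0 kb) in all 24 libraries. It was called with the 4930415O20Rik promoter (226.3 kb) in 8 of 8 Ezh2cKO and 8 of 8 E11.5 WT libraries, and in no deletion or E8.5 library.

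In the fit of promoter partners, 4 member baits passed the minimum mean of 2 partners (Wnt1, its 3′ flank, Wnt7b and Wnt10b), with partners of the Wnt1 baits on chromosome 11 left out. None of the 4 was called in Ezh2cKO (4.78% of all 7236 baits tested were called in limma) or between stages (6.26%), at adjusted p-values of 0.373 or more. Their unadjusted p-values were all above 0.05, the lowest being 0.0926, for Wnt10b in Ezh2cKO. Wnt10b had 9 to 11 partners (median 10.5) in Ezh2cKO libraries, against 11 to 15 (median 12.5) in WT libraries, so the genotypes met at 11. No pair of member baits was called with each other in any Ezh2cKO, E11.5 WT or E8.5 library. The baits of Wnt1 and Wnt10b lie 9.6 kb apart, and the lack of a call does not show a lack of contact.

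The comparison of the 36kb deletion with WT in Md and PA2 (4 against 4 libraries) and of the 42kb deletion with WT in PA2 (2 against 2) asked whether loss of these intervals, named for Hoxa2, moves contacts elsewhere. The Wnt1 bait had fewer cis calls with the 36kb deletion and more with the 42kb deletion, and Wnt7b had more with the 42kb deletion. In limma, 1 of 9 baits was called with the 36kb deletion (11.1% of all baits, 5.65% lower) and 2 of 9 with the 42kb deletion (1.84% of all baits, 0.822% higher). The deletion groups also differed from WT in having no calls between Wnt1 and chromosome 11, and it is not given whether their cells were sorted. What part these differences have in the results was not tested.

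Wnt1 had 20 and 21 cis calls in the 42kb libraries, against 12 and 7 in WT PA2, and the groups did not overlap. The log2 change was 1.26 (SE 0.31; limma adjusted p = 0.0406). It was lost without any 1 of 8 libraries, with adjusted p-values of 0.0509 to 0.301: both 42kb libraries, WT PA2 replicates 1 and 2, WT Md replicates 1 and 2 and Ezh2cKO Mx replicates 1 and 2. The highest was without WT PA2 replicate 2, and with calls under 20 kb left out it was 0.0726. With the 36kb deletion, Wnt1 had 8, 5, 6 and 6 cis calls, against 15, 16, 12 and 7 in WT Md and PA2, so the ranges overlapped at 7 to 8 calls. The log2 change was -0.70 (SE 0.22; limma adjusted p = 0.0433). It was lost without any 1 of 10 libraries, with adjusted p-values of 0.0504 to 0.193: both 36kb PA2 libraries, 36kb Md replicate 2, both 42kb libraries, Ezh2cKO Mx replicates 1 and 2, WT Md replicates 1 and 2 and WT PA2 replicate 1, the last giving the highest.

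Promoter partners of Wnt1 outside chromosome 11 were also higher with the 42kb deletion. The bait averaged 2.29 such partners over all 24 libraries and would fall below the minimum of 2 without the 42kb libraries. It was thus tested only through the group in which it was high, so the call is a description only. Fitting the PA2 groups alone gave a limma adjusted p of 0.139, with 0 of all 7236 baits called. The 42kb libraries had 8 and 9 partners, against 1 and 0 in WT PA2 (log2 change 3.33, SE 0.70; limma adjusted p = 0.00732; 8.6% of all baits called). Without WT PA2 replicate 2 the adjusted p was 0.0977. The Wnt1 bait was called with Wnt10b (9.6 kb) and with the 3′ flank bait that holds Ddn (13.2 kb) in both 42kb libraries and in none of the other 22. In all baits together, promoter pairs under 20 kb apart made up 2.77% to 2.90% of promoter pairs in 42kb libraries, 2.50% to 2.79% in 36kb libraries and 2.07% to 2.27% in E11.5 WT libraries. Their part in the Wnt1 result was not tested.

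Wnt7b had 39 and 38 cis calls in the 42kb libraries, against 23 and 25 in WT PA2 (log2 change 0.81, SE 0.18; limma adjusted p = 0.0215). The groups did not overlap, but the WT PA2 libraries were the 2 lowest of all 24. The call was lost without any 1 of the 4 libraries: adjusted p was 0.122 and 0.0683 without 42kb replicate 1 and 2, and 0.139 and 0.0892 without WT PA2 replicate 1 and 2. With the 36kb deletion Wnt7b had 29, 37, 33 and 31 calls, against 36, 33, 23 and 25 in WT Md and PA2, an overlapping range (log2 change 0.36, SE 0.12; limma adjusted p = 0.0634). The remaining tested baits passed in neither comparison, with the lowest limma adjusted p at 0.084 for Wnt3a with the 36kb deletion (log2 change -0.56) and at 0.298 for Wnt11 with the 42kb deletion (log2 change -0.59).

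For promoter partners with the 36kb deletion, 3 of the 4 tested baits were called (1 higher, 2 lower). Of all 7236 baits, 24.8% were called, 676 higher and 1121 lower, and the median change of all baits was -0.12. Wnt7b had 5, 3, 4 and 7 partners with the 36kb deletion, against 1, 2, 1 and 2 in WT, with no overlap (log2 change 1.48, SE 0.37; limma adjusted p = 0.00779). Wnt10b had 6, 6, 8 and 9, against 13, 11, 11 and 15, with no overlap (log2 change -0.66, SE 0.15; limma adjusted p = 0.0041). The bait in the Wnt1 3′ flank, which holds Ddn, had 3, 2, 3 and 2, against 8, 6, 4 and 7, with no overlap (log2 change -1.05, SE 0.26; limma adjusted p = 0.00675). These 3 calls held without any 1 library, with the same baits kept in the fit. Wnt7b, however, averaged 2.21 partners over all 24 libraries and would fall below the minimum of 2 without the 36kb libraries. It was thus tested only through the group in which it was high, so its call is a description only. For Wnt7b, 2 promoter contacts were called in all 6 deletion libraries and in 0 of 8 E11.5 WT libraries. The first was the promoter of Ribc2 and Smc1b, 448.8 kb away, also called in 2 of 8 Ezh2cKO libraries. The second was a baited fragment in the body of Atxn10, 230.8 kb away, called in no Ezh2cKO or E8.5 library.

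Calls of the Wnt1 bait on other chromosomes are given apart, since reads of a Wnt1 transgene and of the Wnt1 gene cannot be told apart. The bait had no chromosome 11 call in any of the 6 deletion libraries. It had 405 to 539 chromosome 11 calls per library in Ezh2cKO crest (median 481), 438 to 508 in E11.5 WT crest (median 454), and 171 and 191 at E8.5. The E8.5 libraries thus lay below every E11.5 library that had such calls. Over all libraries 7965 calls were listed, of which 3374 lay in the 1 Mb that starts at 6 Mb of chromosome 11. The bait in the 3′ flank had 280 to 387 chromosome 11 calls in Ezh2cKO libraries (median 348.5), 285 to 360 in E11.5 WT libraries (median 308) and none in the deletion libraries. The Wnt1 bait also had 134 calls on chromosome 6 over all libraries, 129 of them in its first 4 Mb. There were 5 to 8 of them per Ezh2cKO library, 6 to 11 per E11.5 WT library, 7 in each E8.5 library and 0 in every deletion library.

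Within chromosome 11 the genotypes differed at the Hoxb cluster, the row of homeobox genes that pattern the hindbrain and trunk. The Wnt1 bait had 0 to 1 Hoxb calls in Ezh2cKO libraries (0 in 7 of 8), against 27, 28, 33, 31, 29, 27, 29 and 34 in E11.5 WT libraries. The genotypes did not overlap, and the 2 E8.5 libraries, with 1 and 2 calls, lay near the Ezh2cKO libraries. In the first 13 Mb the bait had 394 to 516 calls in Ezh2cKO libraries (median 458), against 371 to 430 in E11.5 WT libraries (median 387.5), and these ranges overlapped. Elsewhere on the chromosome it had 11 to 25 calls in Ezh2cKO libraries (median 20.5), against 32 to 51 in E11.5 WT libraries (median 39.5), with no overlap.

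Of 1696 chromosome 11 fragments called with the Wnt1 bait, 22 were called in at least 7 of 8 E11.5 WT libraries and at most 1 of 8 Ezh2cKO libraries, and 1 the reverse. The 22 comprised 19 in the Hoxb cluster and fragments at Otx1, Tlx3 and Hand1, genes of developmental transcription factors. Of the 22, 13 were themselves baits, among them the promoters of Hoxb13, Hoxb8, Hoxb7, Hoxb6, Hoxb5, Hoxb4, Hoxb3, Hoxb2 and Hoxb1, and of Hand1. The fragment of the reverse kind lay in the body of Znrf3, which encodes a ligase that removes Wnt receptors, and was called in 7 of 8 Ezh2cKO and 0 of 8 E11.5 WT libraries. For the 3′ flank bait, 5 of 1185 fragments were called in at least 7 WT and at most 1 Ezh2cKO libraries, and 4 of them lay in the Hoxb cluster. No test was made of these calls, since the fragments were chosen by their counts.

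**Figure D4:**
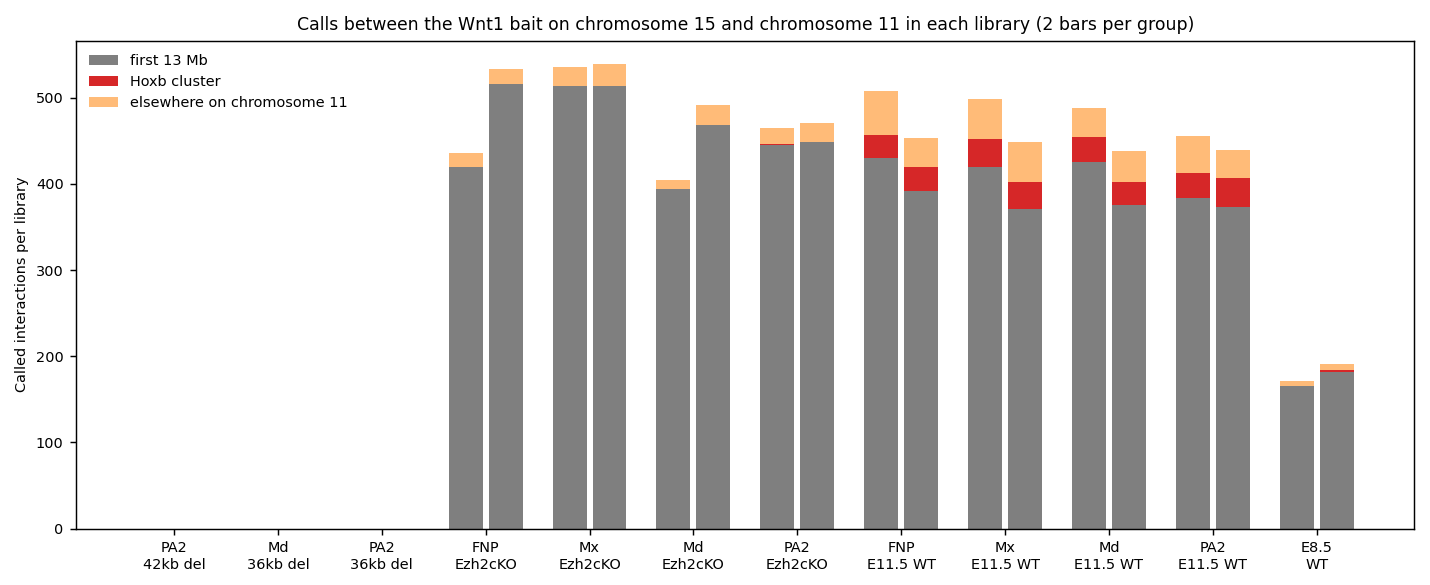
Calls per library (y axis) between the Wnt1 bait and chromosome 11, with 2 bars for the 2 libraries of each group, split into the first 13 Mb, the Hoxb cluster and the remainder. The 6 deletion libraries have none, and the Hoxb part, 27 to 34 calls in every E11.5 WT library, is 0 or 1 in the Ezh2cKO libraries.

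Other genes of the Wnt pathway were taken from a list of 62 genes, of which 36 had a tested bait (38 baits). In Ezh2cKO, 2 of the 38 baits were called higher and 1 lower in limma, beside 5.38% and 5.39% of all baits, with a median log2 change of 0.06. The bait of Dvl1, an intracellular transducer of Frizzled signals, which also holds an end of Mxra8, averaged 26.5 cis calls in Ezh2cKO libraries, against 9.88 in WT libraries (log2 change 1.45, SE 0.23; limma adjusted p = 0.00028). Fzd7, a Frizzled receptor, averaged 43.6, against 33.4 (log2 change 0.35, SE 0.094; limma adjusted p = 0.021). The bait of Dkk4, a secreted inhibitor, shared with the DNA repair gene Polb, averaged 21.5, against 34.8 (log2 change -0.76, SE 0.20; limma adjusted p = 0.0195). Between stages, 12 of the 38 baits were called higher and 4 lower at E11.5, beside 18.6% and 10.3% of all baits, with a median log2 change of 0.31. By role, 6 of the 12 receptor baits were higher and 2 lower, 3 of the 6 baits of nuclear factors higher and 1 lower, 2 of the 4 of secreted inhibitors higher, 1 of the 4 of other ligands higher and 1 of the 6 of the R-spondin branch lower. With the 36kb deletion 3 of the 38 were higher and 1 lower, beside 5.46% and 5.65% of all baits. With the 42kb deletion none was called, beside 1.84% of all baits.

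Over the 12 group means of the scaled log2 cis calls, the named baits most like the 2 called in Ezh2cKO were looked up as a description. For Wnt7b they were Ufl1 (Pearson r 0.913), Rnf103 (0.833) and Tmem167b (0.832). For the upstream Wnt6 bait they were Nr2f2 (0.959), Dll3/Selenov (0.924) and Leprot (0.909). The points share libraries and totals.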

How the data were processed

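Promoter capture Hi-C with the enzyme HindIII was made from mouse cranial neural crest, per the labels' protocols. The deposited files list called interactions of 1 library each, as 2 fragments and a CHiCAGO score, per the file names. All listed scores were 5 or more, and the score was used only to count calls. Coordinates are in GRCm38 (mm10), per the submitters' processing notes. No source used here names the aligner, or the version and settings of the caller. No read counts were used, so read depth is unknown, no interval from counts was given, and scores were not compared between libraries.

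Groups followed the titles. Baits were named from RefSeq genes on GRCm38.p6: 16531 of 22203 held, or lay within 1000 bp of, an end of a RefSeq protein-coding gene, and 3185 carried several names, so a call may belong to any of them. A call counted for both ends where both were baits; no pair was listed in both orders in a library. The tests used limma 3.58.1 in R 4.3.3, two-sided, with 12 group means, moderated variances with trend, 10344 baits (mean of 5 or more cis calls) or 7236 baits (mean of 2 or more promoter partners), and Benjamini-Hochberg adjustment over all of them. The model was tested on simulated data. The members, the pathway list and the comparisons were chosen with earlier results of these data known. Named were all member baits, up to 8 promoter partners per member called in the most of the 16 E11.5 WT and Ezh2cKO libraries, pathway baits past the threshold in Ezh2cKO, and the 3 most alike named baits. The genes inside other contacts described were named after their calls were seen. Each library has its own batch label, so batch could not be modelled, and the E10.5 stage was not analysed here. Alternatives were a replicate block, 1 added before log2, median-of-ratios scaling, higher minimums, scores of 7 or more, no trend, contacts at 20 kb or more, the compared groups alone and each library left out.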

Additional observations from a re-analysis of the deposited data

Results flagged for a closer look

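In 38 sets of 4 to 8 libraries of 1 genotype, 5 held a library that stood apart from the rest by Dixon's criterion. The criterion is made for continuous values, and these are small counts with ties, so its chance rate does not apply here. Where all other libraries of a set tie, any differing value is flagged. WT FNP replicate 2 had 19 cis calls at the upstream Wnt6 bait, where the next WT library had 11. The same library had 13 cis calls at the bait shared by Wnt3 and Wnt9b, where the next had 9. Ezh2cKO Md replicate 2 had 7 cis calls at the bait shared by Wnt10a and Wnt6, where the next Ezh2cKO library had 3. At that bait, PA2 replicate 1 of the 36kb deletion had 0 cis calls, where the other 3 libraries of that genotype had 2 each. Ezh2cKO PA2 replicate 1 had 1 call between Wnt1 and the Hoxb cluster, where the other 7 Ezh2cKO libraries had 0.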

How the results depend on the processing

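Replicate numbers did not pair libraries: over 66 pairs of groups the correlation of same-numbered deviations was -0.086 to 0.158 (median 0.004), with 1 pair over 0.1. With the replicate block, 1083 baits were called in Ezh2cKO, 2968 between stages, 1133 with the 36kb and 179 with the 42kb deletion, and no called Wnt result changed. For the 15 called Wnt results of the 4 comparisons, 105 alternatives gave a value; 94 kept the call and 11 lost it with the same direction. In 11 more the bait fell below the minimum and was not tested: upstream Wnt6, and Wnt7b and Wnt1 for partners, under both scores of 7 or more and higher minimums, and Wnt1 cis calls in 3 comparisons under scores of 7 or more. Scores of 7 or more lost Wnt7b in Ezh2cKO (0.0645), Wnt3a (0.0662) and Wnt7b (0.117) between stages and Wnt7b with the 42kb deletion (0.0733), all as adjusted p. Without trend, Wnt7b was lost between stages (0.0557) and with the 42kb deletion (0.0573). With 20 kb or more, Wnt1 was lost with the 42kb deletion (0.0726). Fitting the compared groups alone lost Wnt1 with the 36kb deletion (0.131), and Wnt7b (0.0704), Wnt1 (0.0832) and Wnt1 partners (0.139) with the 42kb deletion. The causes were not tested.

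Counts over all baits that moved were as follows. Scores of 7 or more left 4255 baits for cis calls. Of these, 567 baits were called in Ezh2cKO, 1543 between stages, 524 with the 36kb and 108 with the 42kb deletion, 9 among WT tissues and 2 for the tissue interaction. For promoter partners these scores gave 185, 261, 874 and 311 called baits in Ezh2cKO, stages, 36kb and 42kb. A higher minimum of partners gave 215, 273, 1041 and 388. In the compared groups alone, 694 baits were called for cis calls with the 36kb and 81 with the 42kb deletion, 15 among WT tissues and 0 for the interaction. For partners with the 42kb deletion, 0 baits were called there. No trend gave 13 among WT tissues and 0 for the interaction. The number of Wnt baits called for cis calls became 1 in Ezh2cKO under a higher minimum or scores of 7 or more, 2 between stages under scores of 7 or more, and 0 with the 36kb deletion in the compared groups alone. With the 42kb deletion it became 0 under scores of 7 or more, 1 without trend, 1 at 20 kb or more and 0 in the compared groups alone, and for partners 0 under a higher minimum, scores of 7 or more or the compared groups alone. Median-of-ratios scaling moved the median change of all baits in promoter partners from -0.13 to -0.03 with the 42kb deletion, and the share of higher calls from 38.1% to 51.0%.

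Leaving out 1 library changed the number of baits called for a change in cis calls. This number was 805 to 1176 in Ezh2cKO, 1668 to 3081 between stages, 594 to 1300 with the 36kb and 29 to 220 with the 42kb deletion. Among WT tissues it was 7 to 29, and for the interaction 1 to 3. For partners the number of baits called was 255 to 374, 190 to 509, 1301 to 1787 and 193 to 664. Wnt baits called ranged over 1 to 3, 3 to 7, 0 to 1 and 0 to 2 for cis calls, were 3 throughout for 36kb partners, and 0 to 1 for 42kb partners.

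No called Wnt result reversed. Uncalled ones did: with the 42kb deletion, Wnt10b became -0.17 under scores of 7 or more, the upstream Wnt6 bait 0.0453 and the Wnt1 3′ flank -0.14 at 20 kb or more, and, for partners, Wnt10b 0.0778 under median-of-ratios scaling and the 3′ flank 0.0902 under scores of 7 or more; between stages the 3′ flank's partners became -0.046 under scores of 7 or more. With 1 library left out, cis changes spanned -0.0827 to 0.0676 (Wnt3a in Ezh2cKO), -0.58 to 0.20 (3′ flank between stages), -0.17 to 0.75 (upstream Wnt6) and -0.027 to 0.19 (Wnt3/Wnt9b) with the 36kb deletion, -1.47 to 0.67 (upstream Wnt6, Ezh2cKO in FNP), and, with the 42kb deletion, -0.76 to 0.57 (upstream Wnt6), -0.0748 to 0.52 (Wnt5a), -0.0026 to 0.30 (Wnt10b) and -0.53 to 0.68 (3′ flank). For partners they spanned -0.11 to 0.18 (Wnt7b in Ezh2cKO), -0.24 to 0.53 (3′ flank between stages), and -0.25 to 0.19 (Wnt10b) and -0.64 to 0.10 (3′ flank) with the 42kb deletion.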

Other observations

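The baits that hold the RefSeq starts of Wnt6 and Wnt9b, which lie outside the rule, were looked at after the values were seen. Both averaged under 5 cis calls and were not tested. The Wnt6 start had 2 to 6 cis calls in Ezh2cKO libraries (median 2.5), 2 to 8 in E11.5 WT libraries (median 4), and 9 and 7 at E8.5. The Wnt9b start had 2 to 7 in Ezh2cKO libraries (median 4.5), 2 to 5 in E11.5 WT libraries (median 3.5), and 9 and 9 at E8.5, above every other library. Each had 3 fragments that were called in both E8.5 libraries and in at most 1 of 8 E11.5 WT libraries.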
